A study of Arabidopsis thaliana with 4 samples.

Results

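The genes described here encode part of the thiol-disulfide reductases and antioxidant enzymes of Arabidopsis thaliana: thioredoxins, glutaredoxins, their reductases, peroxide-removing enzymes and glutathione transferases. They were chosen by symbol alone, as every probe set whose single annotated gene symbol began with a name of these families. No measured value entered this rule, but the families were chosen with earlier results of these data known. This gave 24 genes with 1 probe set each, out of 13513 probe sets with 1 gene symbol and 22810 probe sets on the array. Of the 24, 6 were thiol reductases (TRXF2, NTRC, GR1, GRXC1, GRXC2 and GRX480), 4 were peroxide-removing enzymes (PRXIIF, SAPX, TAPX and the ascorbate-recycling ATMDAR2) and 14 were glutathione transferases. No single-symbol probe set began with the names of 2-Cys peroxiredoxins, catalases, superoxide dismutases, glutathione peroxidases, dehydroascorbate reductases or the enzymes of glutathione synthesis, so those families were not analysed here. Nor did any begin with NTRA, NTRB, PRXQ or APX without S or T before it, and TRXF2 was the only thioredoxin. The rule left out probe sets annotated with several genes, so the set does not cover the families.

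Leaf discs were cut at the end of the night from full-grown source leaves of non-flowering wild-type plants of accession Col-0, and discs of both groups were then incubated in MES buffer in darkness for 1 h. The DTT group had 5 mM dithiothreitol, a small reductant that opens disulfide bonds, in the buffer, and the control group had none. Each group had 2 Affymetrix ATH1 arrays from biological replicates, called DTT 1 and 2 and control 1 and 2. The question was which transcripts respond when cells become more reduced. All values are MAS5 signals, 1 per probe set and array, which the authors had scaled to one mean level per array, and the small number of arrays limits the precision of every value below.

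Thioredoxins and glutaredoxins are small proteins that reduce disulfides in other proteins through a pair of cysteines or a single one. Thioredoxins are reduced in turn by ferredoxin-dependent or NADPH-dependent reductases, and most glutaredoxins by glutathione, which glutathione reductase keeps reduced at the cost of NADPH. Peroxiredoxins and ascorbate peroxidases remove hydrogen peroxide with electrons from these systems or from ascorbate, and monodehydroascorbate reductase restores the ascorbate. Glutathione transferases join glutathione to reactive or foreign compounds, and the tau and phi classes are large plant families. In leaves these systems link the redox state of the chloroplast to enzyme activity and protect it from peroxide.

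The arrays differed more between replicate numbers than between treatments. Over the 13648 tested probe sets, a description across features, the Pearson correlation of log2 signals was 0.968 between DTT 1 and control 1 and 0.972 between DTT 2 and control 2, against 0.885 between both DTT arrays and 0.919 between both control arrays. Values are therefore given within each replicate number, and the limma fit is given both without the replicate number and with it as a block. The leaf identity of the discs was read from the mesophyll markers that had a probe set of their own. RCA, rubisco activase, had 3808.7 and 2999.4 in DTT discs, against 4077.4 and 2751.6 in control discs. LHCB4.1, a light-harvesting protein, had 4987.8 and 4630.7 in DTT discs, against 5586.4 and 4526.3 in control discs. The genes listed for guard cells, FMA and MUTE, summed to 26.7 and 32.4 in DTT discs, against 32.6 and 25.1 in control discs. MUTE lay between 0.7 and 1.3 throughout, so nearly all of the sum was FMA, and MUTE is not read as a measure of guard cells. Markers listed for phloem, epidermis and root had no probe set under a single symbol, and the part of cell type make-up in the results below was not tested. In whole discs, fewer cells of a type and less RNA per cell cannot be told apart.

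None of the redox enzyme genes passed the test for a change with DTT. Of the 24, 16 had a mean log2 signal at or above the 40th percentile of all probe sets (a signal of 16.9) and were tested: all 6 thiol reductases, all 4 peroxide-removing enzymes and 6 of the 14 glutathione transferases. Without a block limma called 0 of the 16 at an adjusted p under 0.05, and 0% of all tested probe sets were called. With the replicate block it also called 0 of the 16, where 0.923% of all tested probe sets were called. At an unadjusted p under 0.05 the members again numbered 0, both without the block, where 0.696% of all probe sets passed, and with it, where 8.00% passed. The smallest limma adjusted p of a member was 0.9999 without the block and 0.796 with it, the second for TRXF2.

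The mean log2 changes of the 16 tested genes, as DTT minus control, ran from -0.42 for ATGSTF13 to 0.36 for TRXF2, and 15.2% of all tested probe sets had a change larger in size than 0.42. None of the 16 changed 2-fold or more in either replicate number, which is near the share over all tested probe sets, of which 5.55% did so in at least 1. The median log2 change of the 16 was 0.11, with 0.13 in replicate 1 and 0.15 in replicate 2, beside medians of -0.01, -0.03 and 0.01 over all probe sets tested. It was 0.44 without DTT 1 and 0.32 without control 2, but -0.16 without DTT 2 and -0.20 without control 1; leaving out 1 array also unbalances replicate number. In the block fit the 95% intervals of the 16 changes reached from 0.483-fold, for ATGSTF13, to 1.77-fold, for TRXF2, and their half-widths lay between 0.37 and 0.63 on the log2 scale. Without the block the half-widths lay between 0.61 and 2.02. A p that misses the threshold leaves changes within these intervals possible.

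**Figure D1:**
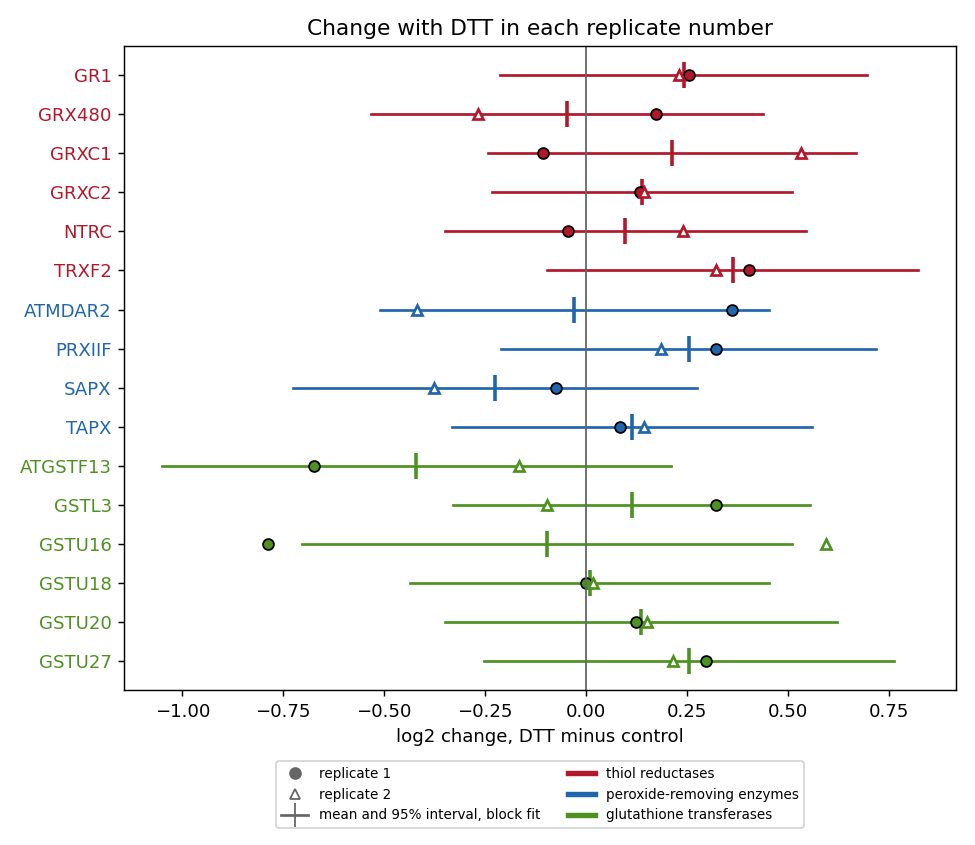
The log2 change (DTT minus control, horizontal axis) of each of the 16 tested genes, with replicate 1 as filled circles, replicate 2 as open triangles, and a tick and line for the mean and its 95% interval in the limma fit with the replicate block. Every interval spans 0, and GSTU16, ATMDAR2, GRXC1, GRX480, GSTL3 and NTRC have their replicates on opposite sides of 0, as has GSTU18 at changes next to 0.

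Of the 16 genes, 7 were higher with DTT in both replicate numbers, where 24.3% of all tested probe sets were, and 2 were lower in both, where 27.0% were. The other 7 had changes of opposite sign in the replicates. The 7 higher in both were TRXF2, GR1 and GRXC2 among thiol reductases, PRXIIF and TAPX among peroxide-removing enzymes, and GSTU20 and GSTU27 among glutathione transferases. The 2 lower in both were SAPX and ATGSTF13. Both DTT arrays lay above both control arrays for 1 member, GRXC2, where 8.01% of all tested probe sets had this order, and below both for 1, ATGSTF13, where 9.81% had it. The groups of the remaining 14 overlapped.

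**Figure D2:**
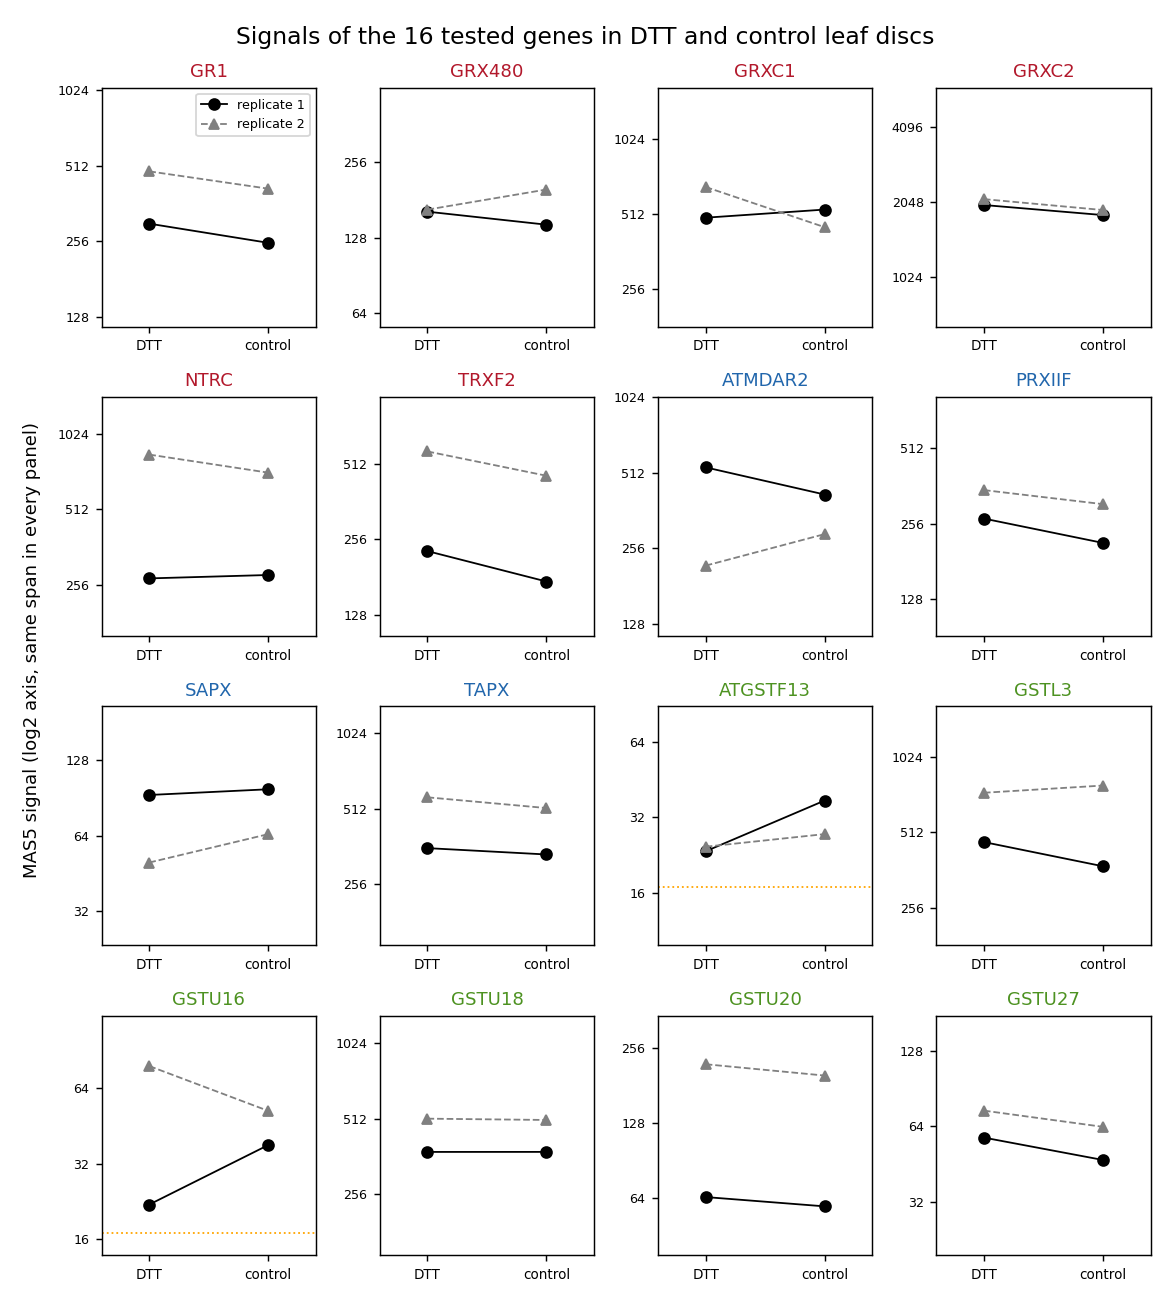
MAS5 signals (log2 axis of equal span in each panel) of the 16 tested genes in DTT and control discs, with replicate 1 as black circles and replicate 2 as grey triangles joined by lines. Titles are red for thiol reductases, blue for peroxide-removing enzymes and green for glutathione transferases, and the dotted line is the filter level of 16.9. The lines of NTRC, TRXF2 and GSTU20 lie further apart than either line is steep.

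Of the genes chosen by symbol, TRXF2 and NTRC belong to the thioredoxin system, and TRXF2 had the larger mean change of both. TRXF2 encodes an f-type thioredoxin of the chloroplast, which is reduced through ferredoxin in the light and activates enzymes of the Calvin-Benson cycle. Its signal was 229.7 in DTT 1 and 573.9 in DTT 2, against 173.7 in control 1 and 459.1 in control 2. It was higher with DTT in both replicates, by 1.32-fold and 1.25-fold, yet the groups overlapped because both replicate 2 arrays lay above both replicate 1 arrays. The mean log2 change was 0.36 (SE 0.22 in the block fit, n = 2, limma adjusted p = 0.796). NTRC, a chloroplast protein that joins an NADPH-dependent thioredoxin reductase to a thioredoxin domain and reduces 2-Cys peroxiredoxins, had 271.2 in DTT 1 and 845.9 in DTT 2, against 279.8 in control 1 and 716.5 in control 2. On the log2 scale it changed by -0.05 within replicate 1 and by 0.24 within replicate 2, with a mean of 0.10. The 95% interval of that mean ran from -0.35 to 0.54 in the block fit and from -1.67 to 1.86 without the block.

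Both GRXC2 and GR1, of the glutathione-dependent branch, had nearly equal changes in the replicates. GRXC2, a glutaredoxin of the cytosol, had 1993.0 in DTT 1 and 2104.0 in DTT 2, against 1817.3 in control 1 and 1903.5 in control 2. The log2 changes were 0.13 and 0.14 in the replicates, and the groups did not overlap. The difference, of 1.1-fold with a 95% interval from 0.851-fold to 1.42-fold in the block fit, did not pass the test (limma adjusted p = 0.980). GR1, the glutathione reductase of cytosol and peroxisome, had 300.5 in DTT 1 and 485.9 in DTT 2, against 252.0 in control 1 and 414.4 in control 2. It was 1.19-fold higher with DTT in replicate 1 and 1.17-fold higher in replicate 2, and both replicate 2 arrays again lay above both replicate 1 arrays (limma adjusted p = 0.938 with the block).

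The other glutaredoxins had no shared direction. GRXC1, a close relative of GRXC2, had 495.2 in DTT 1 and 656.5 in DTT 2, against 533.6 in control 1 and 453.8 in control 2. The log2 changes within replicates 1 and 2 were -0.11 and 0.53, and the second was the highest single change among the thiol reductases. GRX480, also called ROXY19, belongs to the plant-specific CC-type glutaredoxins and binds TGA transcription factors. It had 162.4 in DTT 1 and 165.5 in DTT 2, against 144.1 in control 1 and 199.1 in control 2, so both DTT arrays lay between the control arrays. Its log2 changes of 0.17 and -0.27 gave a mean of -0.05.

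The peroxide-removing enzymes did not share a direction. PRXIIF, the peroxiredoxin of mitochondria, had 268.0 in DTT 1 and 348.2 in DTT 2, against 214.3 in control 1 and 306.0 in control 2, with log2 changes of 0.32 and 0.19 (limma adjusted p = 0.931 with the block). TAPX, the ascorbate peroxidase bound to thylakoids, had 356.8 in DTT 1 and 569.1 in DTT 2, against 336.6 in control 1 and 515.6 in control 2, with log2 changes of 0.08 and 0.14. SAPX, the stromal ascorbate peroxidase, had 93.0 in DTT 1 and 50.0 in DTT 2, against 98.0 in control 1 and 64.9 in control 2. It was thus lower with DTT in both replicates, by log2 changes of -0.08 and -0.38 (limma adjusted p = 0.961 with the block), while TAPX was higher in both. ATMDAR2, a monodehydroascorbate reductase, had 538.7 in DTT 1 and 218.4 in DTT 2, against 419.7 in control 1 and 291.8 in control 2. Its changes of 0.36 and -0.42 nearly cancelled to a mean of -0.03, and the DTT arrays lay on either side of both controls.

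Of the 6 glutathione transferases tested, none had a mean log2 change beyond 0.42 in size. GSTU20, a tau-class enzyme known as a partner of the jasmonate-conjugating enzyme FIN219, had 64.8 in DTT 1 and 219.6 in DTT 2, against 59.5 in control 1 and 197.9 in control 2. It was 1.09-fold and 1.11-fold higher with DTT in the replicates. GSTU27 had 57.6 in DTT 1 and 73.8 in DTT 2, against 46.9 in control 1 and 63.6 in control 2, with log2 changes of 0.30 and 0.21. Both genes were higher with DTT in both replicates, and in both the groups overlapped. GSTU18 had 376.8 in DTT 1 and 511.5 in DTT 2, against 376.9 in control 1 and 505.4 in control 2. Its mean log2 change was 0.01, with a 95% interval from -0.44 to 0.45 in the block fit and from -0.86 to 0.88 without the block. GSTL3, of the lambda class whose catalytic residue is a cysteine, had 468.9 in DTT 1 and 737.5 in DTT 2, against 375.4 in control 1 and 788.1 in control 2. Its changes were 0.32 and -0.10 on the log2 scale.

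ATGSTF13 and GSTU16 had the largest SEs of the 16 in the block fit, 0.31 and 0.30. ATGSTF13, of the phi class, had 23.4 in DTT 1 and 24.4 in DTT 2, against 37.3 in control 1 and 27.4 in control 2. Both DTT arrays lay below both controls, with log2 changes of -0.67 and -0.17 and a mean of -0.42 (SE 0.31 in the block fit, n = 2, limma adjusted p = 0.877). GSTU16 had 22.0 in DTT 1 and 78.5 in DTT 2, against 38.0 in control 1 and 52.0 in control 2. Its changes of -0.79 and 0.59 had opposite signs, and the DTT arrays lay on either side of both controls.

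Set beside each other within a replicate number, the 3 classes did not keep one order when ATMDAR2 was counted among the peroxide-removing enzymes. In replicate 1 the median log2 change was 0.15 for the 6 thiol reductases, 0.20 for the 4 peroxide-removing enzymes and 0.06 for the 6 tested glutathione transferases. In replicate 2 the medians were 0.23, -0.12 and 0.08 in the same order of classes. The median of thiol reductases minus that of glutathione transferases was 0.09 in replicate 1 and 0.15 in replicate 2. The median of thiol reductases minus that of peroxide-removing enzymes was -0.05 in replicate 1 and 0.35 in replicate 2, so its sign differed between replicates. So did that of peroxide-removing enzymes minus glutathione transferases, at 0.14 and -0.20. Both sign changes depended on the ascorbate-recycling ATMDAR2. Among the other peroxide-removing enzymes TAPX was the middle gene, at 0.08 in replicate 1 and 0.14 in replicate 2. Those values lay between the medians of thiol reductases and glutathione transferases in both replicates. Thiol reductases numbered 4 of 6 above 0 in replicate 1 and 5 of 6 in replicate 2, peroxide-removing enzymes 3 of 4 and 2 of 4, and glutathione transferases 3 of 6 and 4 of 6. These are descriptions without a test, since genes are not replicates and each replicate number gives 1 value per class.

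For 13 of the 16 genes the difference between replicates, averaged over both groups, was larger in size than the change with DTT, a count near the share over all tested probe sets, which was 75.2%. In the limma fit with treatment and replicate number, 7 of the 16 were called higher in replicate 2, where 12.9% of all tested probe sets were, and 2 were called higher in replicate 1, where 19.4% were. The 7 were GSTU20, NTRC, TRXF2, GSTU16, GSTL3, TAPX and GR1. GSTU20 was 3.39-fold higher in replicate 2 among DTT discs and 3.33-fold higher among control discs (limma adjusted p = 3.44e-06). NTRC was 3.12-fold higher in replicate 2 among DTT discs and 2.56-fold higher among control discs (limma adjusted p = 9.20e-06), and TRXF2 2.50-fold and 2.64-fold (limma adjusted p = 4.62e-05).

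The direction was the reverse for both genes called higher in replicate 1. ATMDAR2 was 2.47-fold higher in replicate 1 among DTT discs and 1.44-fold higher among control discs (limma adjusted p = 0.00400), and SAPX 1.86-fold and 1.51-fold (limma adjusted p = 0.0205). Transcripts of the chloroplast proteins NTRC, TRXF2 and TAPX were thus higher in replicate 2, while those of SAPX were higher in replicate 1. GRXC2 and GRXC1 had mean replicate differences of 0.07 and 0.09 on the log2 scale, the smallest among the 16. For GRXC2 the difference was 0.08 in DTT discs and 0.07 in control discs. For GRXC1 it was 0.41 in DTT discs and -0.23 in control discs, which partly cancelled in the mean. The labels do not say what a replicate number stands for beyond a biological replicate, and the source of these differences was not tested.

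**Figure D3:**
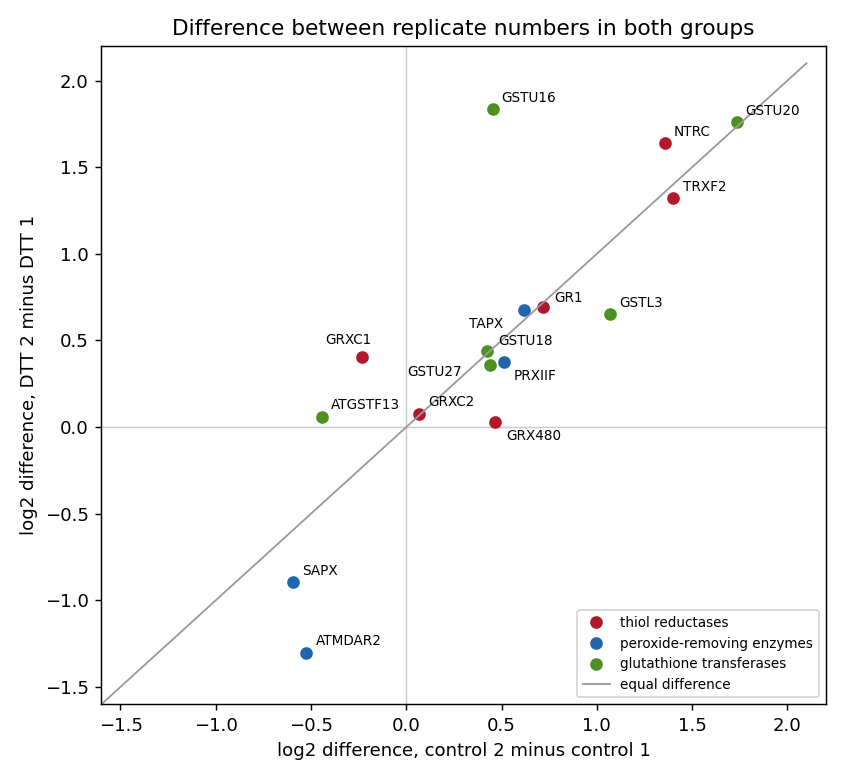
The log2 difference between replicate 2 and replicate 1 in DTT discs (vertical axis) against that in control discs (horizontal axis) for the 16 tested genes, coloured by class, with a line of equal differences. GSTU20, NTRC and TRXF2 lie near the line at the upper right, and SAPX and ATMDAR2 lie at the lower left. GSTU16 is furthest from the line, with 1.84 in DTT discs against 0.45 in control discs, and ATMDAR2 is next, with -1.30 in DTT discs against -0.52 in control discs.

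The other 8 glutathione transferases lay under the filter level: GSTF4 of the phi class and GSTU15, GSTU21, GSTU22, GSTU23, GSTU25, GSTU26 and GSTU28 of the tau class. Several are neighbours on chromosome 1, where GSTU20, GSTU21, GSTU22 and GSTU23 follow each other with no other protein-coding gene between them in the RefSeq annotation. Within this cluster GSTU20 was tested and the other 3 were not. GSTU21 had 2.6 in DTT 1 and 5.3 in DTT 2, against 1.9 in control 1 and 9.2 in control 2. GSTU23 had 9.4 in DTT 1 and 9.7 in DTT 2, against 10.3 in control 1 and 11.0 in control 2. GSTU22 passed the filter level on 1 array alone, with 8.8 in DTT 1 and 12 in DTT 2, against 43.9 in control 1 and 15.0 in control 2. GSTU25 and GSTU26, another adjacent pair, lay between 1.0 and 6.6 and between 11.5 and 12.8 on the 4 arrays.

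GSTU15 had 2.4 in DTT 1 and 2.0 in DTT 2, against 4.1 in control 1 and 6.8 in control 2. Both DTT arrays lay below both controls in GSTU15, as they did in GSTU22 and GSTU23, all with DTT signals under the filter level. This order was seen in 9.81% of the tested probe sets and was not counted over those under the filter. It is therefore not read as a change with DTT. GSTF4 had 17.3 in DTT 1 and 11.6 in DTT 2, against 21.9 in control 1 and 15.4 in control 2, and was lower with DTT within each replicate. GSTU28 had 13.6 in DTT 1 and 10.9 in DTT 2, against 21.6 in control 1 and 9.2 in control 2. In the fit without a filter the smallest limma adjusted p of these 8 was 0.912 with the block, shared by GSTU22 (log2 change -1.32, 95% interval from -2.72 to 0.08) and GSTU15 (log2 change -1.27, 95% interval from -2.97 to 0.43).

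**Figure D4:**
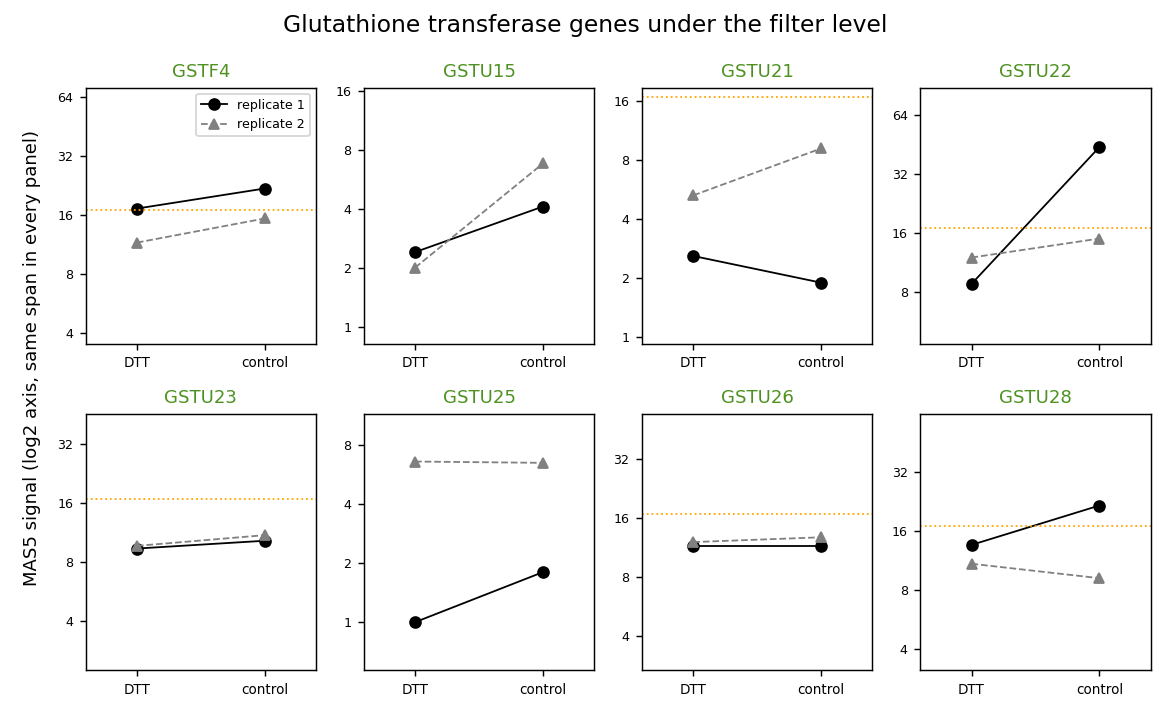
MAS5 signals (log2 axis of equal span in each panel) of the 8 glutathione transferase genes under the filter level in DTT and control discs, with replicate 1 as black circles and replicate 2 as grey triangles. The dotted line is the filter level of 16.9, which lies above the plotted span for GSTU15 and GSTU25 and is crossed in GSTU22 by control 1 alone.

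Genes of linked pathways were read from 4 lists, and none passed the test without the block or with it. Over all tested probe sets 0% and 0.923% passed, so counts of 0 are near that share. Among partners of thioredoxins, 6 had a probe set, 0 rose, 0 fell and 6 did not pass, with a median log2 change of 0.12, of -0.11 in replicate 1 and of 0.32 in replicate 2. The median was -0.012 without DTT 2 and -0.040 without control 2, and 0.22 without control 1. SRX, the sulfiredoxin that restores over-oxidised peroxiredoxins, had 313.5 in DTT 1 and 396.8 in DTT 2, against 314.1 in control 1 and 302.3 in control 2. MSRB9, a methionine sulfoxide reductase, had log2 changes of 0.50 and 0.37 (limma adjusted p = 0.706 with the block), although its signals of 412.3 in DTT 1 and 67.1 in DTT 2, against 290.8 in control 1 and 52.0 in control 2, differed far more between replicates. The other 4, MSRB3, MSRB5, MSRB6 and MSRA5, had mean changes between -0.20 and 0.12.

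Among genes of ascorbate and glutathione supply and turnover, 7 had a probe set, 0 rose, 0 fell and 7 did not pass. The median log2 change was 0.11 in replicate 1, 0.12 in replicate 2 and 0.02 for the mean of both. GME was the middle gene in each replicate and VTC4 in the mean. GLX2-1, a gene named for glyoxalase II, an enzyme that releases glutathione, had 279.7 in DTT 1 and 343.5 in DTT 2, against 219.1 in control 1 and 249.8 in control 2. Both DTT arrays lay above both controls, an order that 8.01% of all tested probe sets had. The mean log2 change of GLX2-1 was 0.41 (limma adjusted p = 0.735 with the block). GLDH, the last enzyme of ascorbate synthesis, had log2 changes of -0.15 and -0.07, and GME, an epimerase earlier in that pathway, 0.11 and 0.12. The lists for disulfide formation in the endoplasmic reticulum and for hydrogen peroxide production and response had 1 probe set each. PDIL5-1, a disulfide isomerase-like protein, had log2 changes of -0.57 and 0.17 (limma adjusted p = 0.975 with the block). STZ, a zinc finger repressor induced by many stresses, had 0.77 and 0.32 (limma adjusted p = 0.268 with the block).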

How the data were processed

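Biotin-labelled RNA of 2 DTT and 2 control samples was hybridized to ATH1 arrays, per the labels' protocols. The values the authors deposited are linear intensities, 1 per probe set; the submitters' processing notes name MAS5. Its settings and detection calls are unknown here. On every array the deposited values averaged 100 after trimming 2% at each end, so a change in total mRNA cannot be seen.

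Groups came from sample titles. Signals of 0 were set to 0.1 and log2 was taken. The tests took the 13648 probe sets that were no Affymetrix control (64 are) and whose log2 signals averaged at least 4.08, the 40th percentile. limma 3.58.1 under R 4.3.3 (lmFit, eBayes with a mean-variance trend) was fitted over all of them, and p-values were adjusted by Benjamini-Hochberg (threshold 0.05). Adding replicate number as a block leaves that fit 1 residual degree of freedom. Fold changes are 2 to the power of the mean log2 difference. Fits were also run on simulated data whose noise was set below the residual spread of these arrays, so that run cannot vouch for the fits here. Symbols came from the platform annotation; all 24 genes matched a RefSeq locus, which also gave synonyms for the list matches and gene neighbours. Plots were made in Python 3.11.15 with matplotlib 3.10.9.

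The members, the class and pathway lists and the tests were chosen with earlier results of these data known. By rule, signals were given for members past the block fit, and per class for the 2 largest rises and falls of one direction in both replicates and the 2 highest signals; the text gives all members. Alternatives were quantile or median scaling, log2(signal + 16) and log2(signal + 64), no filter, a filter at the 60th percentile, other variance models, probe sets ending in _at, 1 probe set per gene, the replicate block, and each array left out in turn.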

Additional observations from a re-analysis of the deposited data

How the results depend on the processing

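The count of members past the test was 0 under all 24 alternatives run, with adjusted p-values of at least 0.749 under the replicate block. Over all probe sets the count was 0 without a block, except 3 without DTT 1, so 0 to 3 without single arrays. With the replicate block it was 126, and joined with the block 72 with quantile normalization, 92 with one median per array, 42 with log2(signal + 16), 137 with log2(signal + 64), 3 with no filter, 176 with the stricter filter, 35 without the variance trend, 105 with robust eBayes and 3 with a median over all probe sets; the cause was not tested. No label states a pairing by number; over the tested probe sets, DTT 2 minus DTT 1 correlated at 0.746 with control 2 minus control 1, and each array correlated best with the one of its own number.

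The median of the 16 members moved to 0.083 with quantile normalization, 0.14 with one median per array, 0.20 with the median over all probe sets, 0.094 with log2(signal + 64) and -0.035 with no filter, where all 24 count; it ran from -0.20 to 0.44 without single arrays. That of thiol reductases was 0.26 with the median over all probe sets and -0.20 to 0.50 without single arrays. That of peroxide-removing enzymes was 0.025 with quantile normalization, 0.068 with one median per array, 0.13 with the median over all probe sets and -0.12 to 0.14 without single arrays. That of glutathione transferases was 0.035 with quantile normalization, 0.087 with one median per array, 0.15 with the median over all probe sets, 0.12 with the stricter filter (4 genes), -0.16 with no filter (14 genes) and -0.33 to 0.44 without single arrays. The list of thioredoxin partners moved to 0.20 with the median over all probe sets and -0.040 to 0.22 without single arrays. The ascorbate and glutathione list moved to 0.050 with one median per array, 0.11 with the median over all probe sets and 0.091 to 0.29 without single arrays.

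With all 4 arrays, 8 of 316 changes of single members turned in sign, with or without the block: ATMDAR2 to 0.059 and GRX480 to 0.041 with the median over all probe sets, GSTU16 to 0.025 with log2(signal + 64) and GSTU18 to -0.036 with quantile normalization. Without single arrays 12 of 16 turned: ATMDAR2 ranged from -0.68 to 0.62, GR1 from -0.12 to 0.60, GRX480 from -0.28 to 0.19, GSTL3 from -0.42 to 0.65, GSTU16 from -1.01 to 0.82, GSTU18 from -0.21 to 0.23, GSTU20 from -0.74 to 1.02, NTRC from -0.72 to 0.92, PRXIIF from -0.0025 to 0.51, SAPX from -0.67 to 0.22, TAPX from -0.22 to 0.45 and TRXF2 from -0.34 to 1.06. ATGSTF13, GRXC1, GRXC2 and GSTU27 kept their sign. Such fits unbalance replicate number and assume that a lone array varies like the other group. The median over all probe sets, the alternatives for the pathway lists and the comparison of replicate numbers were chosen after seeing the data.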

Other observations

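The symbols of 3 further redox genes do not begin with a family name, but RefSeq synonyms do; they were picked after the values had been read. GR, the glutathione reductase of chloroplasts and mitochondria (synonym ATGR2), had 407.4 in DTT 1 and 423.8 in DTT 2, against 454.0 in control 1 and 501.2 in control 2. Both DTT arrays lay below both controls, an order that 9.81% of all tested probe sets had. The log2 changes of GR were -0.16 and -0.24 (limma adjusted p = 0.963 with the block), while GR1 was higher with DTT in both replicates. Neither passed the test, and the difference between both genes was not tested.

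ATHM2, an m-type thioredoxin of the chloroplast, had 1047.6 in DTT 1 and 1805.6 in DTT 2, against 1213.4 in control 1 and 1685.6 in control 2. It was called higher in replicate 2 (limma adjusted p = 0.0134), as TRXF2 was. TY1, a y-type thioredoxin, had 42.0 in DTT 1 and 27.2 in DTT 2, against 28.7 in control 1 and 22.9 in control 2, with log2 changes of 0.55 and 0.25 (limma adjusted p = 0.887 with the block).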
